A study of Mus musculus with 9 samples.

Results

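Oligodendrocyte precursor genes were followed in RNA-seq of adult mouse hippocampus. The set held 9 genes chosen by symbol, Pdgfra, Cspg4, Gpr17, Lhfpl3, Neu4, Bmp4, Matn4, Pcdh15 and C1ql1, and all 9 were found once among the 18275 genes of the deposited table. Libraries came from 4 Nestin;BrafKE/+ mice and 5 Braf+/+ littermate controls, all of them males of 11 to 15 weeks on a strain labelled C57BL/6N. Nestin;BrafKE/+ mice carried Nestin-Cre and 1 Cre-inducible knock-in copy of Braf with the K499E (KE) change, which encodes a more active kinase, made in embryonic stem cells of a mixed 129 and C57BL/6 background. Nestin-Cre acts in embryonic neural stem cells, so neurons, astrocytes and oligodendrocyte lineage cells could all carry the active allele, and a difference in whole hippocampus cannot be assigned to one cell type. Controls were given as Braf+/+, and whether they carried Cre was not stated. The libraries were put into 3 series by their names, A with 4 libraries (Nestin;BrafKE/+ replicate 1, Braf+/+ replicates 1 to 3), B with 3 (Nestin;BrafKE/+ replicates 2 and 3, Braf+/+ replicate 4) and C with 2 (Nestin;BrafKE/+ replicate 4, Braf+/+ replicate 5). The names carry 4 prefixes, and series A joins 2 of them by choice. Braf+/+ replicates 1 and 2 share a prefix, and Nestin;BrafKE/+ replicate 1 and Braf+/+ replicate 3 share another.

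Oligodendrocyte precursors are the dividing glia of the adult brain that give rise to myelinating oligodendrocytes. They carry the PDGF receptor alpha, which binds PDGF-A and signals through RAS, RAF and ERK, and the NG2 proteoglycan encoded by Cspg4. As they leave the precursor state they lose these proteins and pass through a short committed stage marked by Gpr17 before myelin genes are switched on. Because some of these genes are also used by other cells (Cspg4 by pericytes, Pdgfra by fibroblasts), no single member marks the precursor alone.

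All values below are the normalised signal as deposited, already adjusted for batches by the authors, and no gene was listed at 0. Library totals ran from 19551312 to 20091532, and the number of reads behind a value is unknown. A change is the limma log2 fold change, Nestin;BrafKE/+ minus Braf+/+, on the log2(value + 1) scale with series as a term, and a gene passed when its p, adjusted by the Benjamini-Hochberg method over the 16196 genes tested, was under 0.05. Choroid plexus RNA differed strongly between libraries, with a summed signal of 8 markers from 1455 to 24667 in the mutants and from 4696 to 392918 in the controls. The highest were Braf+/+ replicate 2 (392918) and replicate 4 (114659), and replicate 4 is the only control of series B. With series as a term, a series left without mutants or without controls adds nothing to the genotype difference. This befalls series A without Nestin;BrafKE/+ replicate 1, series B without Braf+/+ replicate 4, and series C without either of its libraries. Braf itself, the targeted gene, had a signal of 2264 ± 144 (SD, n = 4) in the mutants and 2786 ± 153 (SD, n = 5) in the controls (log2 fold change -0.30, adjusted p = 0.0378), and the table holds no measure of the KE allele. In whole tissue, a change in the number of precursors and a change in RNA per precursor cannot be told apart.

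Of the 9 genes, 1 passed the test, Cspg4, which rose in Nestin;BrafKE/+. Over all genes tested 1.52% passed in that direction, 1.36% in the other and 2.88% in either. Pdgfra came next by p but did not pass, and the intervals of the other 7 included no change. Cspg4 and Pdgfra were also the only 2 members whose groups did not overlap (all mutant libraries above all controls), against 7.62% of all genes tested that were separated in this direction, 8.13% in the other and 15.7% in either. The median log2 fold change of the 9 genes was 0.22, and that of all genes tested was 0.00033. Of the 9, 8 had a fold change above 0, against 50.1% of all genes tested.

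**Figure D1:**
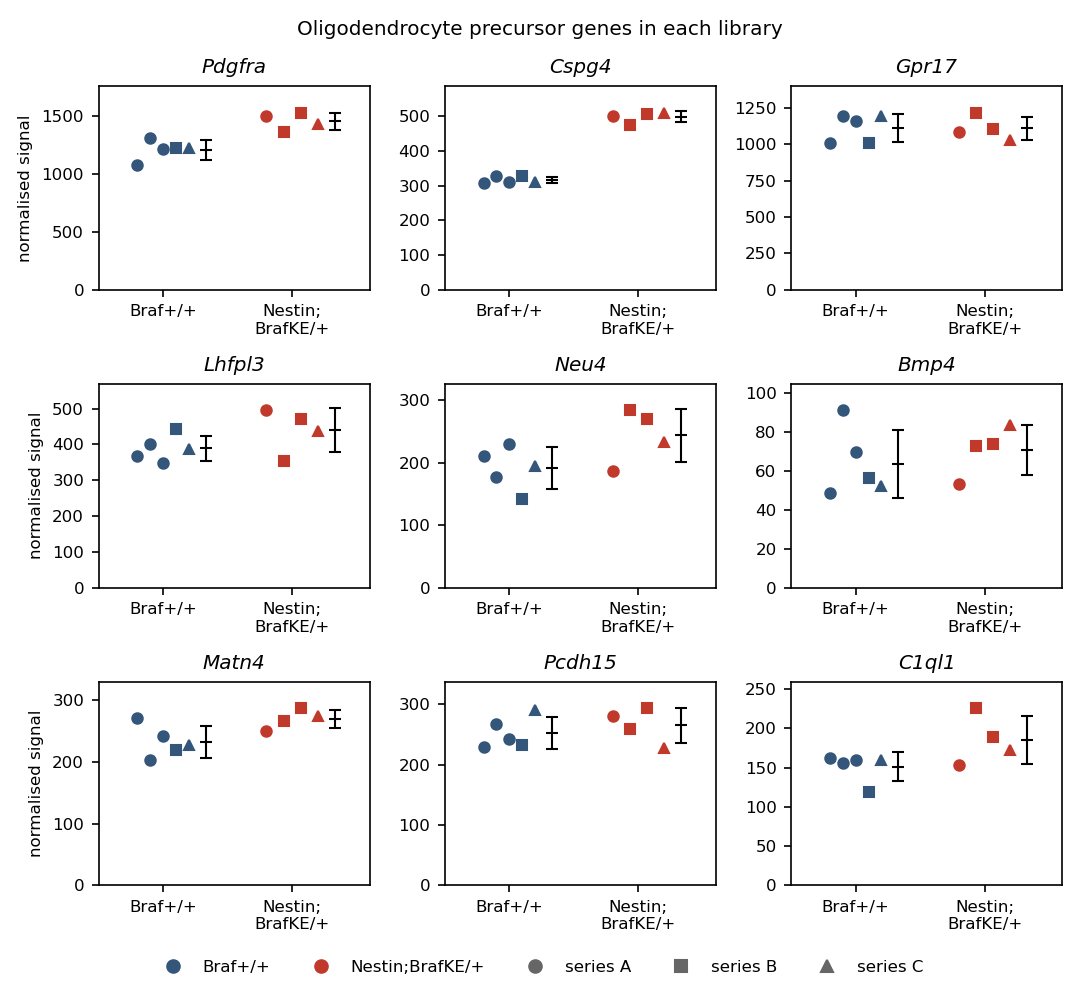
Normalised signal (y axis, from 0) of the 9 precursor genes in each of the 5 Braf+/+ and 4 Nestin;BrafKE/+ libraries, with the symbol showing the series and the bar showing the group mean ± SD. Cspg4 separates the genotypes widely (309 to 327 against 475 to 510), Pdgfra narrowly, and Gpr17 and Pcdh15 mix.

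Cspg4 (ENSMUSG00000032911, chromosome 9, 56772317 to 56807187 in GRCm39, plus strand) encodes NG2, a large transmembrane chondroitin sulphate proteoglycan that binds matrix proteins and growth factors. Its signal was 502, 475, 505 and 510 in Nestin;BrafKE/+ replicates 1 to 4. In Braf+/+ replicates 1 to 5 it was 309, 327, 311, 327 and 309. The 2 groups were each tight and stood apart, with the lowest mutant library well above the highest control. The means were 498 ± 15.9 (SD, n = 4) and 317 ± 9.66 (SD, n = 5), a ratio of 1.57. The log2 fold change was 0.65 (SE 0.08, 95% interval 0.48 to 0.82, limma adjusted p = 0.00261), and Cspg4 ranked 24th by p among all genes tested. Within series A, B and C the difference was 0.67, 0.58 and 0.72 on the log2 scale. An exact two-sided permutation of genotypes gave p = 0.00794 over 126 assignments of all libraries and p = 0.0417 over 24 assignments inside the series, which are the lowest values possible here. The 126 assignments ignore series and take no account of the authors' batch adjustment, so nothing is read from the first p. Cspg4 was past the threshold with each library left out in turn. The highest adjusted p, 0.0471, came without Nestin;BrafKE/+ replicate 1, the only mutant of series A, so that difference rests on series B and C.

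Pdgfra (ENSMUSG00000029231, chromosome 5, 75311994 to 75358876, plus strand) encodes the receptor tyrosine kinase through which PDGF-A keeps precursors dividing and alive. Its signal was 1495, 1356, 1527 and 1428 in Nestin;BrafKE/+ replicates 1 to 4, and 1072, 1309, 1210, 1225 and 1226 in Braf+/+ replicates 1 to 5. Every mutant library was above every control, but the gap between the nearest libraries, 1356 and 1309, was smaller than the SD of either group. The means were 1452 ± 76 (SD, n = 4) and 1208 ± 85.6 (SD, n = 5), a ratio of 1.2. The log2 fold change was 0.27 (SE 0.07, 95% interval 0.10 to 0.43), with an unadjusted p of 0.00414 and an adjusted p of 0.0842 in limma, above the threshold. The difference was 0.33, 0.23 and 0.22 within series A, B and C. Exact two-sided permutation gave p = 0.0159 over all assignments, which ignores series as for Cspg4, and p = 0.0417 inside the series. With each library left out in turn the adjusted p stayed above the threshold, from 0.0781 to 0.301. With the choroid plexus level as a covariate, an alternative added after the data had been seen, it was past the threshold (adjusted p = 0.0334). It also passed when series was left out of the model (0.0129), but that fit does not count the degrees of freedom spent on the authors' batch adjustment and calls 2260 genes in place of 466, so nothing is read from it.

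The ratio of Cspg4 to Pdgfra also differed between libraries. Cspg4 signal was 33.6%, 35%, 33.1% and 35.8% of that of Pdgfra in Nestin;BrafKE/+ replicates 1 to 4. In Braf+/+ replicates 1 to 5 it was 28.8%, 25%, 25.7%, 26.7% and 25.2%. This ratio was taken after the values had been seen and was not tested.

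The sequence just before the start of Cspg4 and Pdgfra is shown because these were the 2 members with separate groups, a choice made after their values were seen. Promoters were taken from RefSeq on GRCm38.p6, a different build from that of the expression data, and 7 of the 9 genes were matched (Gpr17 and C1ql1 were not). Each run gives the 250 bases before the start, 5′ to 3′ on the plus strand.
Cspg4 (GRCm38.p6, chr9:56864854-56865103): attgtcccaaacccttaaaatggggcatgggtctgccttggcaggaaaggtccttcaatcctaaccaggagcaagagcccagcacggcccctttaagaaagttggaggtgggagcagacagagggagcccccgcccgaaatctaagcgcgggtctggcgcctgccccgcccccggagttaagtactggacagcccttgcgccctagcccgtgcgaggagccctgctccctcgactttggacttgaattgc
Pdgfra (GRCm38.p6, chr5:75152001-75152250): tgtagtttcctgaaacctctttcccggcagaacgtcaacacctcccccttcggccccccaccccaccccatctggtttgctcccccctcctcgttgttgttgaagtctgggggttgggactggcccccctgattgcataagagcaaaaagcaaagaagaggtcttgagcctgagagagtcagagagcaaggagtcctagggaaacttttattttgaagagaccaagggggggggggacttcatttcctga
Of the 250 bases, 60.4% were G or C for Cspg4 and 54.4% for Pdgfra, against a median of 52.4% over 32851 promoters. A SOX core (ACAAAG), an E-box (CAGCTG, its own reverse complement) and an ETS core (CCGGAAG) were searched on both strands, and matches would stand in capitals. None of these letters stood in either run. The SOX core was found in 16.5% of all promoters, the E-box in 13% and the ETS core in 6.91%. Among the 8 promoters of the 7 matched genes the SOX core was in 0, the E-box in 1 (Lhfpl3) and the ETS core in 2 (Lhfpl3 and Bmp4).

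Matn4, C1ql1 and Bmp4 encode secreted proteins. Matn4 (chromosome 2, 164230090 to 164247080), a matrilin of the extracellular matrix, had a signal of 250 to 287 in the mutants and 203 to 270.3 in the controls. The groups overlapped through Braf+/+ replicate 1, the highest control. Its means were 269 ± 15.2 (SD, n = 4) and 232 ± 25.4 (SD, n = 5), with a log2 fold change of 0.22 (95% interval -0.03 to 0.47, adjusted p = 0.346). It was the third member, after Cspg4 and Pdgfra, with a difference above 0 in all 3 series (0.08, 0.33 and 0.26). Slpi overlaps the span of Matn4 on the same strand, but overlap of exons was not examined, so whether any reads are shared is unknown.

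C1ql1 (chromosome 11, 102829755 to 102837610) encodes a C1q-like protein that acts as a synaptic organiser. Its signal was 154, 226, 189 and 172 in the mutants and 162, 156, 159, 119 and 159 in the controls. Braf+/+ replicate 4 was low, and the other 4 controls lay between 156 and 162. The log2 fold change was 0.29 (95% interval -0.06 to 0.64, adjusted p = 0.372), with differences of -0.05, 0.79 and 0.12 in series A, B and C. Leaving out Braf+/+ replicate 4 brought it to 0.02 (adjusted p = 0.976), with series B then out of the genotype comparison.

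Bmp4 (chromosome 14, 46620250 to 46636745) encodes a ligand of BMP receptors that holds back oligodendrocyte differentiation. It had the lowest signal of the 9, from 53.2 to 83.8 in the mutants and from 48.7 to 91.0 in the controls. The highest value belonged to a control, Braf+/+ replicate 2. Its log2 fold change was 0.17 with a wide interval, -0.36 to 0.70 (adjusted p = 0.746), and the within-series differences ran from -0.34 in A to 0.68 in C.

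Neu4 and Gpr17 are high in precursors that have begun to differentiate. Neu4 (chromosome 1, 93948173 to 93956056) encodes a sialidase, and its signal was 188, 284, 271 and 233 in the mutants and 212, 177, 231, 143 and 195 in the controls. Nestin;BrafKE/+ replicate 1 lay within the controls and Braf+/+ replicate 4 was the lowest library. The log2 fold change was 0.35 (95% interval -0.05 to 0.74, adjusted p = 0.336), second in size to Cspg4, with differences of -0.13, 0.95 and 0.26 within series A, B and C. Without Braf+/+ replicate 4, the library that Neu4 and C1ql1 share as their lowest, the log2 fold change of Neu4 was 0.03 (adjusted p = 0.966). With both libraries of highest choroid plexus signal left out, it was -0.024. Both of these fits lack Braf+/+ replicate 4, so series B adds nothing to their genotype difference. The part of choroid plexus RNA in these values was not tested.

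Gpr17 (chromosome 18, 32076050 to 32082888), a G protein-coupled receptor of committed precursors, was the member closest to no difference. Its signal ran from 1032 to 1217 in the mutants and from 1007 to 1196 in the controls, with means of 1110 ± 78.1 (SD, n = 4) and 1112 ± 96.3 (SD, n = 5). The log2 fold change was -0.0017 (95% interval -0.19 to 0.18, adjusted p = 0.994), so changes within that interval could not be told from none at this spread. Gpr17 lies within Lims2, a gene of the opposite strand.

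Lhfpl3 and Pcdh15 encode membrane proteins. Lhfpl3 (chromosome 5, 22951057 to 23480611), a tetraspan protein, ran from 355 to 495 in the mutants and from 348 to 442 in the controls. The mutants spanned almost the whole range of the data, with Nestin;BrafKE/+ replicate 2 near the lowest control and replicate 1 above every control. Its log2 fold change was 0.17 (95% interval -0.10 to 0.43, adjusted p = 0.50), and 0.0091 without Nestin;BrafKE/+ replicate 1. Pcdh15 (chromosome 10, 72935174 to 74485569), a protocadherin, ran from 228 to 294 in the mutants and from 230 to 291 in the controls, which overlapped throughout. Its log2 fold change was 0.07 (95% interval -0.20 to 0.34, adjusted p = 0.810). Annotated genes overlap the span of each on the same strand (2 for Lhfpl3, 3 for Pcdh15). Overlap of exons was not examined, so whether any reads are shared is unknown.

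**Figure D2:**
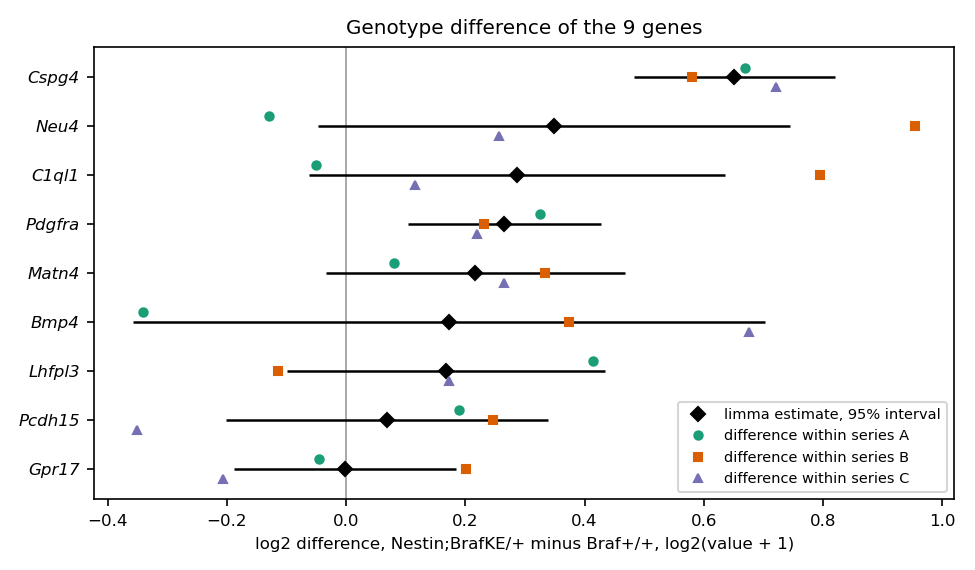
Log2 difference between genotypes (x axis, on the log2(value + 1) scale) for the 9 genes, with the limma estimate and its 95% interval in black and the differences within series A, B and C as coloured symbols. For Cspg4 the series lie between 0.58 and 0.72, while for Neu4 they spread from -0.13 to 0.95.

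The sign of the difference varied across series. Differences were above 0 for 5 of the 9 genes in series A, 8 in series B and 7 in series C, and 3 genes had the same sign in all series. Of the 9 genes, 2 had an unadjusted p under 0.05 in limma, both higher, against 18.5% of all genes tested (8.86% higher). None of the 9 lies on chromosome 6, where Braf is.

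Levels were compared between genes per kilobase of annotated exon, from the union of all exons of a gene. In Braf+/+ the order was Gpr17 (206 ± 17.9 signal per kb, SD, n = 5), Lhfpl3 (120 ± 11), Pdgfra (98.2 ± 6.96), C1ql1 (75.6 ± 9.15), Neu4 (34.6 ± 6.11), Matn4 (32.8 ± 3.59), Cspg4 (26.5 ± 0.807), Bmp4 (12.1 ± 3.30) and Pcdh15 (10.6 ± 1.11). Neu4 and Matn4 overlapped, as did Bmp4 and Pcdh15, and so did Neu4 and Cspg4, since the lowest Neu4 library stood at 25.8 signal per kb. Between the other neighbours the libraries of one gene did not overlap those of the next. In Nestin;BrafKE/+ Cspg4 stood at 41.6 ± 1.33 signal per kb (SD, n = 4), within the range of Neu4 (33.9 to 51.3) and overlapping that of Matn4 (35.4 to 40.5), whose libraries had all been above Cspg4 in the controls.

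Other precursor genes were followed in a list of 15. Of these, 1 passed, Megf11, which rose, and 0 fell past the threshold, a share of 6.67% against 1.52% of all genes that rose and 2.88% that changed either way. The list was split in direction, with 7 higher and 8 lower and a median log2 fold change of -0.00046. Megf11 (ENSMUSG00000036466, chromosome 9, 64292888 to 64616487), partly overlapped by the gene Rab11a of the opposite strand, encodes a transmembrane protein with EGF-like repeats. Its signal was 560, 468, 513 and 486 in the mutants and 336, 381, 342, 389 and 380 in the controls, with no overlap. Its log2 fold change was 0.47 ± 0.09 (SE, limma adjusted p = 0.0253), and it differed by 0.67, 0.33 and 0.35 inside series A, B and C. Megf11 no longer passed without Nestin;BrafKE/+ replicate 1 (0.175) or 3 (0.0729), without Braf+/+ replicate 4 (0.0686), without both libraries of highest choroid plexus signal (0.0937) and with 4 name prefixes in place of the series (0.0757), each value being an adjusted p. Vcan, which encodes the proteoglycan versican, had a fold change of similar size, 0.49, but its mutant libraries ran from 375 to 782 and its adjusted p was 0.221. The lowest log2 fold changes were those of Rlbp1 at -0.30 (adjusted p = 0.156) and Brinp3 at -0.18 (0.443).

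**Figure D3:**
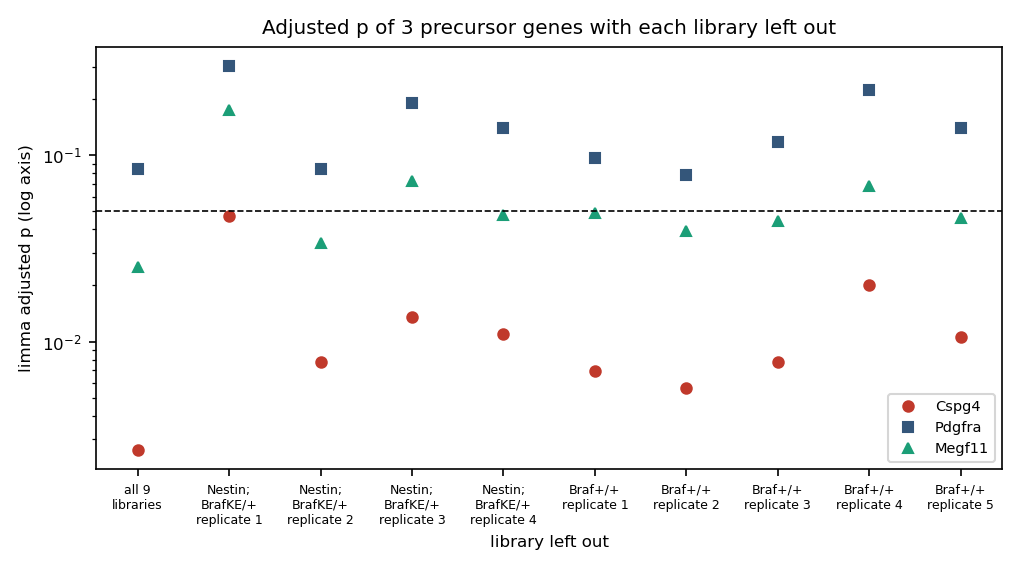
Limma adjusted p (y axis, log scale) of Cspg4, Pdgfra and Megf11 with all 9 libraries and with each library left out (x axis). The dashed line marks 0.05, below which Cspg4 stays throughout (highest 0.0471), Pdgfra never lies and Megf11 lies for 6 of the 9 libraries left out.

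Lineage transcription factors regulate oligodendrocyte fate and differentiation, and the list holds some that restrain differentiation. Of 14 tested, 0 passed in limma and 5 had an unadjusted p under 0.05 (4 higher, 1 lower), where 18.5% of all genes did (8.86% higher). The median log2 fold change was 0.13, and the groups of 2 genes did not overlap (14.3%, against 7.62% of all genes in that direction). The highest was Olig1 at 0.37 (SE 0.10, adjusted p = 0.0696), with 2435 to 2900 in the mutants and 1833 to 2354 in the controls. Those were separate groups, and of the libraries left out in turn Olig1 passed only without Braf+/+ replicate 3 (adjusted p = 0.0465). Nkx2-2, which promotes differentiation, followed at 0.34 (adjusted p = 0.244) with groups that were also separate. The lowest were Sox5 at -0.32 (adjusted p = 0.264) and Sox6 at -0.30 (0.413), both of which restrain precursor differentiation. Olig2, given here because the study counted Olig2-positive cells, had 562 to 710 in the mutants, 458 to 611 in the controls and a log2 fold change of 0.28 (95% interval 0.02 to 0.55, adjusted p = 0.243). The study found the number of Olig2-positive cells unchanged in the CA1 region of the hippocampus and in cortex. That is a measure of stained cells in a part of the hippocampus, and not of RNA from the whole.

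Committed precursor genes mark the stage between precursor and myelinating cell. Of 11 listed, 10 were tested and 0 passed in limma, while 3 had an unadjusted p under 0.05 (2 higher, 1 lower), against 18.5% of all genes (8.86% higher), with a median log2 fold change of 0.07. The highest were Bcas1 at 0.25 (adjusted p = 0.169), a marker of newly forming oligodendrocytes, and Tns3 at 0.17 (0.225). The lowest were Rras2, a RAS-related GTPase, at -0.28 (adjusted p = 0.132) and Tcf7l2, an effector of Wnt signalling, at -0.15 (0.599).

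Mature oligodendrocyte genes had more calls than the other lineage lists. Of 16 tested 7 rose past the threshold, 43.8% against the 1.52% of all genes that did, with a median log2 fold change of 0.34. That these genes were mostly higher was known from earlier results of these data when the list was chosen, and is not independent evidence. The highest were Gjb1, the connexin 32 gene of myelin, which went from 198 ± 24.5 (SD, n = 5) to 355 ± 34.9 (SD, n = 4) (log2 fold change 0.84, adjusted p = 0.00803), and Apod, a lipid carrier, at 0.77 (0.00223). Trf, which encodes transferrin, was called at 0.56 (adjusted p = 0.0065). Mobp, Mog, Mag and Cldn11, all myelin genes, passed with log2 fold changes from 0.39 to 0.58. The lowest were Ermn at 0.08 (adjusted p = 0.643) and Mal at 0.14 (0.420). The count was 1 without Nestin;BrafKE/+ replicate 1, 2 without Braf+/+ replicate 4, 3 without Nestin;BrafKE/+ replicate 3 and 4 without Nestin;BrafKE/+ replicate 2. Apod passed with any 1 library left out.

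**Figure D4:**
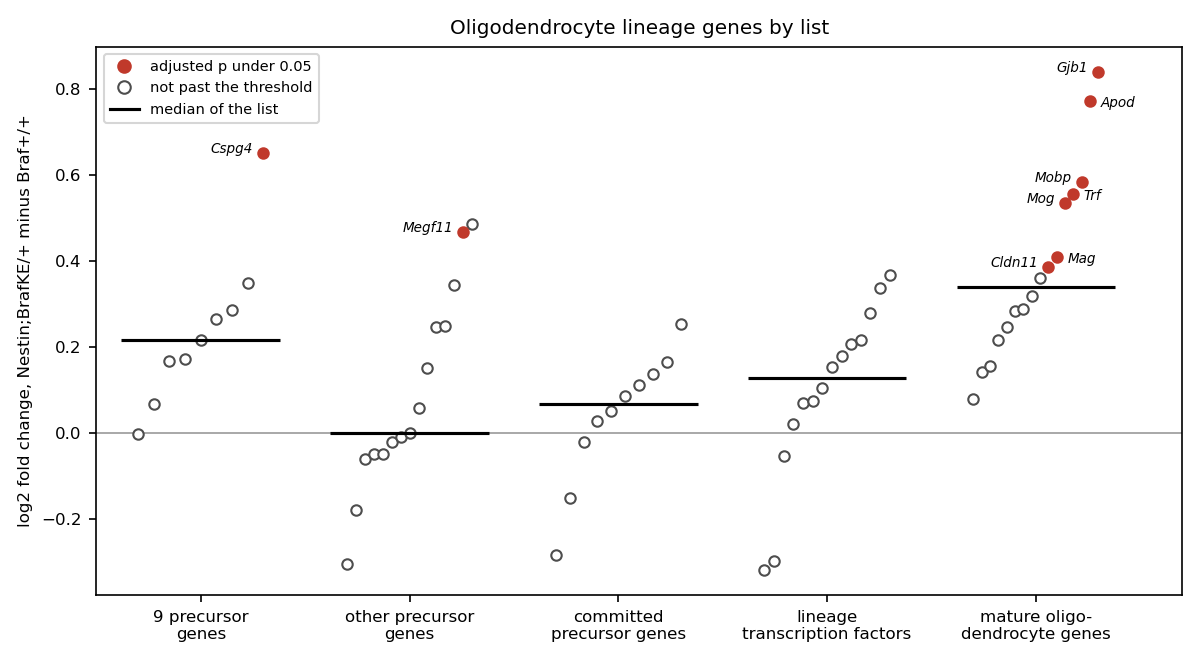
Log2 fold change (y axis, Nestin;BrafKE/+ minus Braf+/+) of each tested gene in 5 lists of the oligodendrocyte lineage, with filled points for an adjusted p under 0.05 and lines for the medians. The median is 0.22 for the 9 precursor genes, -0.00046 for other precursor genes and 0.34 for mature oligodendrocyte genes.

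Ligands, receptors and relatives of the members were taken from a list of 44, of which 40 were tested. Of these 1 passed, 2.5% against 2.88% of all genes, and 18 were higher and 22 lower. For PDGF signalling 0 of 5 passed (1 at an unadjusted p under 0.05, Pdgfrb, higher), including Pdgfa, the ligand of Pdgfra. For BMP signalling 0 of 20 passed in limma (4 at an unadjusted p under 0.05, 1 higher and 3 lower, where 18.5% of all genes were), with Bambi, a decoy receptor, lowest at -0.53 (adjusted p = 0.143). Among relatives and partners of the other members 1 of 15 rose, Lhfpl1, a relative of Lhfpl3 on the X chromosome. Its signal was 51.2, 67.6, 51.9 and 47.9 in the mutants and 22.9, 11, 14.9, 13.1 and 18 in the controls. The groups stood far apart at a low level, and the log2 fold change was 1.73 ± 0.28 (SE, adjusted p = 0.011). The call was lost when Nestin;BrafKE/+ replicate 1 (adjusted p = 0.0837) or Braf+/+ replicate 4 (0.0886) was left out. The other gene highest in the list was Cdh23, a cadherin that pairs with Pcdh15 in hair cells, at 0.61 (adjusted p = 0.621), and the lowest was Cysltr1, a leukotriene receptor related to Gpr17, at -1.09 (0.242).

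Other cells that use Cspg4 or Pdgfra were followed by their markers, and no marker was listed at 0. Of 9 mural cell markers 8 were higher and 1 lower, with a median log2 fold change of 0.15. None passed in limma, and 3 had an unadjusted p under 0.05 (Pdgfrb, Abcc9 and Notch3, all higher), against 8.86% of all genes in that direction. Their summed signal was 5280 to 5908 in the mutants. In Braf+/+ replicates 1 to 5 it was 4528, 6126, 4692, 5059.7 and 4654, so every control but replicate 2, the library with the most choroid plexus signal, lay below every mutant. Pdgfrb, the PDGF receptor of pericytes, had 506 to 554 in the mutants and 404 to 469 in the controls (log2 fold change 0.28, adjusted p = 0.0944), against 0.65 for Cspg4.

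Of 9 fibroblast and meningeal markers 6 were higher and 3 lower. Of these 1 passed, a share of 11.1% against 2.88% of all genes. It was Col1a1, a collagen, which rose from 159 ± 30.6 (SD, n = 5) to 309 ± 53.2 (SD, n = 4) (log2 fold change 0.96, adjusted p = 0.0214). Col1a1 was no longer past the threshold without Nestin;BrafKE/+ replicate 1 (adjusted p = 0.0826) or 3 (0.0653) or Braf+/+ replicate 4 (0.114). The lowest were Ogn at -0.69 (adjusted p = 0.316), Lum at -0.34 (0.432) and Igf2 at -0.24 (0.766). The summed signal of the list was 3841 to 4428 in the mutants and 3561, 8104, 2468, 4435 and 4162 in Braf+/+ replicates 1 to 5, with the top value again in replicate 2. The part of mural cells in the Cspg4 difference and of fibroblasts in the Pdgfra difference was not tested.

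Markers of other brain cells moved beside the oligodendrocyte genes. Of 7 astrocyte markers 2 rose past the threshold, where 1.52% of all genes did, Gfap at 0.68 (adjusted p = 0.00576) and Aldoc at 0.35 (0.0106). Both lost the call without Nestin;BrafKE/+ replicate 1 (0.0742 for each) and without Braf+/+ replicate 4 (0.0525 and 0.069). Of the 7, 5 had an unadjusted p under 0.05 in limma, all higher, against 8.86% of all genes in that direction. The groups of 3 astrocyte markers did not overlap, all higher (42.9%, against 7.62% of all genes). The summed astrocyte signal overlapped, with 107039 to 120786 in the mutants and 101224 to 114906 in the controls. Its largest part was Slc1a2 (mean 63194 in the mutants, 65668 in the controls, log2 fold change -0.06). Of 6 microglia markers 0 passed in limma, and 2 had an unadjusted p under 0.05, both higher, against 8.86% of all genes in that direction. Their summed signal was 4695 to 5059 in the mutants and 4167 to 4622 in the controls, without overlap. Of 7 neuron markers 0 passed in limma, and 3 had an unadjusted p under 0.05, all lower, where 18.5% of all genes did in either direction. Snap25 (log2 fold change -0.12, adjusted p = 0.223) and Syt1 (-0.18, 0.123) were lower with no overlap between groups, as were 8.13% of all genes. Their part in the differences of the oligodendrocyte lineage genes was not tested.

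Proliferation genes gave a measure of dividing cells, which in adult hippocampus include precursors. Of 10 listed, 8 were tested and 0 passed in limma, with 0 at an unadjusted p under 0.05, where 18.5% of all genes were. Of the 8, 4 were higher and 4 lower, with a median log2 fold change of 0.0023. Mki67 had 29.8 to 49.2 in the mutants and 31.0 to 44.0 in the controls, so the dividing share of the tissue could be read only at low signal.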

How the data were processed

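Stranded mRNA libraries were made from the hippocampus, 1 per mouse. The p-values thus take mice as replicates, but the spread they use is what remained after the authors' batch adjustment, not the full spread between animals. The authors trimmed reads with TrimGalore, aligned them to GRCm39 (Gencode vM28) with STAR, quantified them with Salmon under nf-core, adjusted for batches by a method not given in the sources used here, and scaled them with DESeq2. What the authors deposited is thus a signal, in normalised counts. The values fall on whole multiples of 1 step per library, but the whole number of mt-Co1 is 491938 in every library, so these are not reads, no count model was used and depth is unknown. After removing group means, Nestin;BrafKE/+ replicate 4 and Braf+/+ replicate 5, the only libraries of series C, correlated at -0.997.

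The main test was limma (version 3.58.1, R 4.3.3) with a trended prior variance, on log2(value + 1) of genes whose mean was at least 10, with genotype and series as terms, two-sided, adjusted over 16196 genes. Single genes were also given exact permutation tests. Scripts were tested on simulated data. Alternatives were 2 other pseudocounts, 2 other filters, 2 other scalings, 5 other models and leaving out each library, and 2 more on choroid plexus RNA were chosen after seeing the data. Members and lists were chosen with earlier results of these data known. Besides members, the text names genes past the threshold and the 2 highest and 2 lowest fold changes in each lineage or partner list, and the 5 genes most like the members, of which 1 is not reported here. Exceptions are the markers of other cells, Braf, Olig2 and Pdgfa, chosen otherwise. Positions came from Gencode vM39 on GRCm39, which held 18179 of the 18275 gene IDs. The strand setting of the counting is not given in the sources used here, so reads of genes that overlap on opposite strands may be mixed. All per-sample columns were used. Plots used matplotlib 3.10.9 under Python 3.11.15 (pandas 2.3.3).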

Additional observations from a re-analysis of the deposited data

Results flagged for a closer look

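In 4 of 68 groups of values over 34 named genes, 1 library stood far from the rest of its group by Dixon's criterion, and chance gives about 1 in 20 groups, or 3.4. Among the precursor genes this was C1ql1 in Braf+/+ replicate 4, at 119 where the other controls had 156 to 162. Among mature oligodendrocyte genes, Trf was low in Braf+/+ replicate 1 (4213, others 5053 to 5282), Mobp in Nestin;BrafKE/+ replicate 4 (14999, others 18865 to 19447) and Ermn in Nestin;BrafKE/+ replicate 2 (1606, others 1710 to 1714).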

How the results depend on the processing

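Cspg4 passed the threshold under all 22 alternatives. The 9 precursor genes had 1 call, and 2 without the series term or with choroid plexus level as a covariate (Pdgfra added), and always 1 on leaving out a library. Calls over all genes, 466 in the reported fit, were 165 with 4 name prefixes, 258 with array quality weights, 2260 without the series term, 1405 with a replicate block in place of series, 58 without both libraries of highest choroid plexus level, and 42 to 369 on leaving out a library. For the other lists, without the series term the calls were 3 (other precursor), 2 (committed), 3 (transcription factors), 11 (mature) and 7 (signalling partners), and in the same order 2, 1, 2, 11 and 5 with the replicate block. Leaving out a library gave, in that order, 0 to 1, 0 to 0, 0 to 1, 1 to 9 and 0 to 1. Other precursor calls were 0 with name prefixes and 0 without both choroid plexus libraries. Mature calls were 4 with array weights, 4 with the choroid plexus covariate and 1 without both libraries. Signalling partner calls were 0 with a minimum mean of 50 (Lhfpl1 was then not tested) and 0 without both libraries. Gpr17 turned to 0.00033 with TMM, 0.0027 with quantile normalisation and 0.024 with the replicate block, and ran from -0.11 to 0.071 on leaving out a library. Without both choroid plexus libraries Neu4 turned to -0.024 and Pcdh15 to -0.0067. On leaving out a library Bmp4 ran from -0.0040 to 0.50 and Pcdh15 from -0.026 to 0.22. The fits without the series term and with the replicate block do not count the degrees of freedom spent on the authors' batch adjustment. Leaving out Nestin;BrafKE/+ replicate 1 (42 calls over all genes) takes series A out of the genotype comparison, and leaving out Braf+/+ replicate 4 (97) takes out series B. The fit without both choroid plexus libraries also lacks Braf+/+ replicate 4, so series B drops out of it too. Apart from these points and from fewer libraries or genes, the cause of these moves was not tested. Replicate numbers were not taken to pair the mice. Deviations of same-numbered libraries correlated at -0.39, -0.0779, 0.0686 and 0.415, and 1 of 4 mutant libraries correlated best with the control of its own number. These correlations cannot decide pairing, since only the libraries numbered 1 share a series. Mutant and control libraries of the same series all correlated below 0, from -0.10 to -0.997. With 4 and 5 libraries, and SEs from 0.07 to 0.24 on the log2 scale for the 9 precursor genes, small differences in single precursor genes could not be detected.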

Other observations

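The summed signal of the 9 precursor genes was 4398 to 4723 in Nestin;BrafKE/+ and 3676 to 4128 in Braf+/+, with no overlap, and Pdgfra and Gpr17 make up most of it. It has no test, since the members were chosen with results known. Among the genes whose series-centred log2 value was most like the mean of the members over the 9 libraries were Tmem222 (Pearson r = 0.998 as a description), Hcn3 (0.993), Aff3 (0.987) and Ly6h (0.983). These libraries share the genotype difference and the low Braf+/+ replicate 4, and none of these 4 genes passed the threshold between genotypes (limma adjusted p from 0.121 to 0.308). Centring within series leaves fewer than 9 free values, and the libraries of series C become mirror images (0.104 and -0.104 for the members). The highest r among so many genes can then be large without any relation, so nothing is read from it.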
